A study of Mus musculus with 7 samples.

Results

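The interferon gamma induced GTPases described here are 10 mouse genes, chosen by name: the guanylate binding protein genes Gbp2, Gbp3, Gbp4, Gbp5, Gbp6, Gbp7, Gbp8 and Gbp9 and the immunity-related GTPase genes Irgm1 and Igtp. All 10 were found among the 55335 genes of the deposited tables, and all 10 passed the filter on low counts. RNA was measured in group 2 innate lymphoid cells (ILC2s), which lack antigen receptors and respond to interleukin 33 through its receptor ST2. They were sorted from digested mouse hearts as CD45+ Lineage- ST2+ cells. The naive group comprised 3 libraries of hearts that had not been transplanted, and the allograft group comprised 4 libraries of Balb/C hearts taken 7 days after transplantation into C57BL/6 mice, a model that develops acute rejection. Each library pooled cells of 4 to 7 hearts. The labels give no genotype, no age, no sex and no strain for the naive hearts, and they carry the time of 7 days on the naive libraries too. The sort did not tell donor from recipient cells, and nothing says which pools were prepared together. The p-values therefore measure the spread between pools.

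Interferon gamma binds a receptor of 2 chains, IFNGR1 and IFNGR2, which activates the kinases JAK1 and JAK2. Their signal reaches genes through a DNA element called GAS (the gamma-activated site), and the induced factor IRF1 binds the interferon-stimulated response element (ISRE). Guanylate binding proteins and immunity-related GTPases are among the most strongly induced products. They coat the vacuoles of intracellular pathogens, disrupt them and feed the inflammasome. Type I interferons induce several of them as well.

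The 10 genes lie on 3 chromosomes of the mouse genome (GRCm38, the assembly also called mm10, GENCODE M21 annotation). Gbp5 (chr3:142493978-142522344), Gbp7 (chr3:142530342-142550149), Gbp3 (chr3:142560026-142573209) and Gbp2 (chr3:142620602-142638008) are on the plus strand of chromosome 3. Gbp8 (chr5:105014150-105139540), Gbp9 (chr5:105077630-105139539), Gbp4 (chr5:105115767-105139586) and Gbp6 (chr5:105270702-105293698) are on the minus strand of chromosome 5. Irgm1 (chr11:48861968-48871683, minus strand) and Igtp (chr11:58199556-58207591, plus strand) are on chromosome 11, far from each other. Values below are for whole genes. Gbp4, Gbp8 and Gbp9 are annotated from nearly the same start and share 60 or 61 exonic bases. Gbp6 shares 1726 exonic bases, 28.99% of its own, with Gm43302. Gbp7 shares 637 with the pseudogene Gm43802, and Igtp shares 162 with Irgm2. Reads from such stretches, and from near-identical paralogs, could have been assigned to either gene.

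RefSeq promoter windows (GRCm38.p6, 250 bases before to 50 bases after a start) were found for 6 of the 10 genes, with 2 starts for Gbp3. Windows of Gbp4, Gbp6, Gbp8 and Gbp9 were not used here. The ISRE core was searched as GAAA, any 2 bases and GAAA again, and GAS as TTCNNNGAA, both on either strand. All 6 genes held an ISRE core, although the second Gbp3 start did not, against 3.44% of all 32851 windows. Gbp5, Gbp7 and Igtp also held GAS, which was found in 8.30% of all windows. No GAS match overlapped an ISRE match in these 6 genes. The stretches below show the matches of each gene in capitals, 5′ to 3′ on the gene's own strand, because they are the letters of these interferon response elements. A match is a description of the letters and not a measured site. RefSeq starts can differ from the GENCODE gene bounds given above. The stretches of Irgm1 and Gbp5 lie inside those bounds and that of Gbp2 overlaps them. Those of Irgm1 and Gbp2 also overlap an annotated exon.
Gbp2, chr3:142620594-142620623, plus strand, ISRE core from position -59 of the start: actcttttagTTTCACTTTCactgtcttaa
Gbp3, chr3:142559992-142560021, plus strand, overlapping ISRE cores from -45 and -39: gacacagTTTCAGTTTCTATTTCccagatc
Gbp5, chr3:142496759-142496788, plus strand, ISRE core from -165: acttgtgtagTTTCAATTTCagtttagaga
Gbp7, chr3:142530226-142530305, plus strand, GAS from -106 and -87 and ISRE core from -53: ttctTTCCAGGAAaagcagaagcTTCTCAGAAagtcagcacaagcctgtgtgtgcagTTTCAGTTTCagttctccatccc
Irgm1, chr11:48871428-48871457, minus strand, overlapping ISRE cores from -30 and -24: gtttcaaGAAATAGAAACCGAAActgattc
Igtp, chr11:58199506-58199535, plus strand, GAS from -45 and ISRE core from -34: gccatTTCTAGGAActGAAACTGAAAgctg
The GAS matches of Gbp5, at -245 and -52, lie outside the stretch shown.

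The libraries held 29107326 to 53044907 counts. Levels are given as CPM, the count scaled to that total, in the order naive replicates 1, 2 and 3 and then allograft replicates 1 to 4, unless another order is named. The naive libraries differed much among themselves. The 11 ILC2 markers summed to 10720, 1147 and 14660 CPM in the naive libraries and 11150 to 11800 CPM in the allografts. Naive replicate 2 thus held few of the labelled cells' transcripts. It also held 10240 CPM of 8 kidney tubule genes (69.8 to 275.5 CPM elsewhere), 429 CPM of 7 endothelial genes (8.26 to 46.5 CPM elsewhere) and 26.5% mitochondrial counts. Naive replicates 1 and 3 gave counts for 15820 and 13864 genes, against 19235 to 21354 in the allografts. Values without naive replicate 2 are therefore given beside those of all 7 libraries. In pooled cells, fewer cells of a type and less RNA per cell cannot be told apart.

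The summed level of the GTPase genes overlapped between the groups, and their mean log2 level did not. The sum, which the abundant genes set, was 199.9, 135.3 and 334.1 CPM in the naive libraries and 284.6, 213.4, 242.8 and 220.5 CPM in the allografts. All 4 allografts lay inside the naive range. The naive mean was 223 ± 101 CPM (SD, n = 3), or 267 ± 94.9 CPM (SD, n = 2) when naive replicate 2 was left out. That of the allografts was 240.3 ± 32.03 CPM (SD, n = 4). The difference of the means, allograft minus naive, was 17.2 CPM in the first case and -26.7 CPM in the second. With CPM scaled by TMM, edgeR's correction for composition, it was -8.79 CPM over all 7 libraries, so that its direction depended on the scaling. The mean log2 CPM of the 10 genes, scaled by TMM and with a prior count of 2, weighs each gene alike and moves most with genes at or near 0. It was 3.04, 2.79 and 2.33 in the naive libraries and 4.27, 3.93, 3.63 and 4.05 in the allografts, all of them above all naive libraries. Counts were found for 9, 10 and 7 of the 10 genes in the naive libraries and for 10, 10, 9 and 10 in the allografts.

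**Figure D1:**
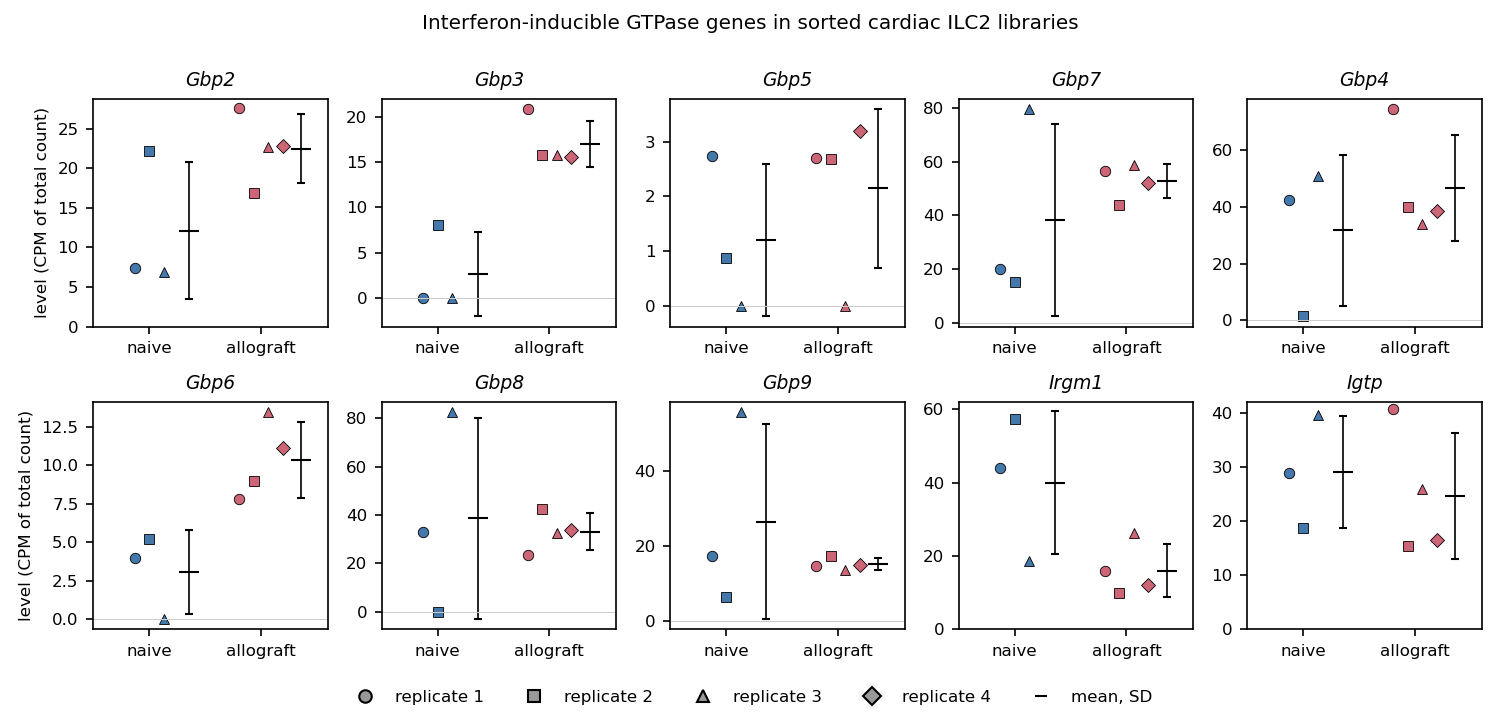
Level of each GTPase gene (CPM of the total count, linear axes starting at or below 0) in 3 naive and 4 allograft libraries. Each symbol is 1 library, its shape gives the replicate number, and the dash with bars is the mean with its SD. Gbp3 and Gbp6 are the genes whose allograft libraries all lie above the naive ones.

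Compared per length, Igtp and Gbp8 had the highest mean levels in both groups and Gbp5 the lowest mean in the allografts. On the FPKM scale (fragments scaled to length and depth, by the authors), the allograft order was Igtp 10.5 ± 4.95, Gbp8 8.30 ± 1.96, Gbp7 8.13 ± 1.00, Gbp2 7.73 ± 1.49, Gbp4 5.38 ± 2.12 and Gbp3 4.49 ± 0.660 (SD, n = 4). It went on with Gbp9 2.52 ± 0.268, Irgm1 2.37 ± 1.08, Gbp6 1.499 ± 0.367 and Gbp5 0.278 ± 0.188. Neighbours in this order overlapped between libraries except at 2 steps, from Gbp3 to Gbp9 and from Gbp6 to Gbp5. In the naive libraries the order was Igtp 12.7 ± 4.41, Gbp8 9.88 ± 10.7, Irgm1 6.16 ± 3.11, Gbp7 6.03 ± 5.62, Gbp9 4.52 ± 4.43, Gbp2 4.35 ± 3.22, Gbp4 3.72 ± 3.11, Gbp3 0.7535 ± 1.305, Gbp6 0.460 ± 0.412 and Gbp5 0.159 ± 0.182 (SD, n = 3). No neighbours were separated there. Gbp2, Gbp3, Gbp4 and Gbp7 stood higher in the allograft order than in this naive order, and Irgm1 and Gbp9 stood lower. With naive replicate 2 left out, Gbp7 and Gbp4 held ranks 3 and 5 in the naive order, as in the allografts. Gbp2 (rank 7) and Gbp3 (rank 10, at 0 FPKM) still stood higher in the allograft order. Irgm1, Gbp9, Gbp6 and Gbp5 then stood lower in it.

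**Figure D2:**
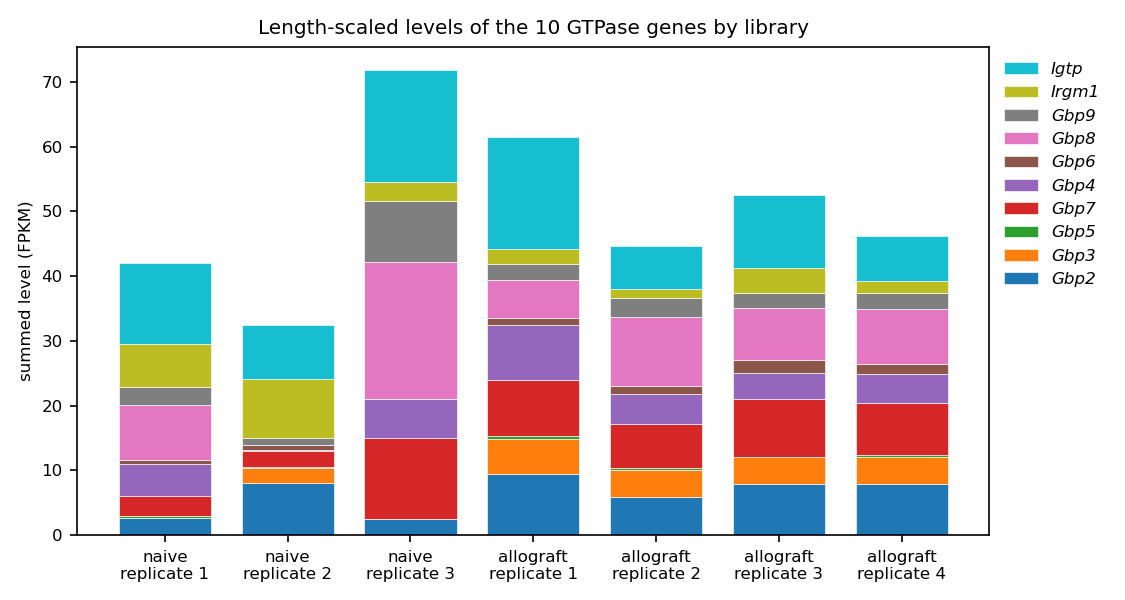
Summed FPKM of the 10 GTPase genes in each library, with each gene as 1 segment of the bar. Igtp and Irgm1 together made up 45.4%, 53.8% and 28.0% of the bar in naive replicates 1 to 3 and 18.0% to 31.9% in the allografts.

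Of the chromosome 3 genes, Gbp3 stood apart most clearly. Gbp3, one of the cluster whose loss leaves mice susceptible to Toxoplasma, stood at 0, 8.05 and 0 CPM in the naive libraries, and at 20.8, 15.8, 15.7 and 15.5 CPM in the allografts. Every allograft library was above every naive library, and the only naive counts came from replicate 2. Its log2 fold change, allograft over naive, was 2.08 (SE 2.19), with an adjusted p of 0.843 in edgeR's quasi-likelihood test over all 17015 genes tested. The other 2 naive libraries were at 0 counts, which allows up to 3 counts or 0.0566 and 0.0688 CPM. Tested against these 2 alone, Gbp3 rose in the allografts (adjusted p = 0.0234 in edgeR, range 0.0234 to 1 over 17 alternatives), with every allograft library above both. The allograft mean was 271 times the mean of these 2 limits, which cover counting error only. Gbp5, for comparison, had 0 counts in allograft replicate 3 and 87 to 119 counts in the other allografts. With 0 counts in both naive libraries, Gbp3 could only come out higher. The call of Gbp3 rests on leaving out 1 library, and naive replicates 1 and 3 were also the libraries with the fewest genes detected. Whether the 2 are linked was not tested.

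Gbp2, whose product gathers on parasite vacuoles, stood at 7.39, 22.1 and 6.88 CPM in the naive libraries, and at 27.6, 16.9, 22.7 and 22.8 CPM in the allografts. Naive replicate 2 lay within the allograft range, and the other naive libraries lay below it. The log2 fold change was 0.51 (SE 0.675, adjusted p = 0.887), or 1.61 (SE 0.445, adjusted p = 0.114) without that library. In linear terms the allograft mean was 3.15 times the mean of naive replicates 1 and 3. Naive replicate 2, with the endothelial and kidney transcripts given above, was the naive library with the most Gbp2 and Gbp3, and their part in these levels was not tested.

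Gbp7, which is known to act in autophagy and in assembly of the NADPH oxidase, had 19.9, 15.2 and 79.5 CPM in the naive libraries. Its allograft levels were 56.4, 44.0, 58.7 and 52.1 CPM, between naive replicate 3 and the other naive libraries. The log2 fold change was 0.34 (SE 0.550, adjusted p = 0.919) and 0.02 (SE 0.543, adjusted p = 0.991) without naive replicate 2. Without naive replicate 3 it was 1.33, with an adjusted p of 0.142. Gbp5, an activator of the NLRP3 inflammasome, was scarce, at 2.73, 0.879 and 0 CPM in naive and 2.70, 2.69, 0 and 3.20 CPM in allograft libraries. Each group held 1 library at 0, and the groups overlapped (log2 fold change 0.68, SE 2.08, adjusted p = 0.966; 0.63, adjusted p = 0.927 without naive replicate 2).

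Among the chromosome 5 genes, only Gbp6 separated the groups. Gbp6 stood at 4.00, 5.19 and 0 CPM in the naive libraries, and at 7.84, 9.01, 13.5 and 11.1 CPM in the allografts. All 4 allografts were above all 3 naive libraries. The log2 fold change was 1.41 (SE 1.595, adjusted p = 0.858), and 2.35 (SE 1.85, adjusted p = 0.533) without naive replicate 2. Gm43302, which shares exons with Gbp6, had 0 counts in every naive library and 5.20, 4.10, 5.24 and 0 CPM in the allografts. With the counts of both summed, the levels were 4.00, 5.19 and 0 CPM in naive and 13.04, 13.1, 18.7 and 11.1 CPM in allograft libraries (log2 fold change 1.84, SE 1.58, adjusted p = 0.792; 2.79, adjusted p = 0.443 without naive replicate 2).

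Gbp4, Gbp8 and Gbp9, the 3 genes that share exonic bases, varied more among naive libraries than between the groups. Gbp4 had 42.6, 1.52 and 51.1 CPM in naive and 74.4, 40.1, 34.0 and 38.6 CPM in allograft libraries. Only naive replicate 2 lay outside the allograft range (log2 fold change 0.52, SE 0.882, adjusted p = 0.923; -0.05 without naive replicate 2). Gbp8 had 33.1, 0.0220 and 82.6 CPM in naive and 23.6, 42.4, 32.4 and 33.7 CPM in allograft libraries. Naive replicate 2 held a single count of Gbp8 and naive replicate 3 held the most (log2 fold change -0.27, SE 1.42, adjusted p = 0.982; -0.87, adjusted p = 0.328 without naive replicate 2). Gbp9 had 17.2, 6.33 and 55.8 CPM in naive and 14.6, 17.4, 13.7 and 14.8 CPM in allograft libraries. The allografts lay within a 1.27-fold range, while the naive libraries spanned 8.81-fold (log2 fold change -0.91, SE 0.656, adjusted p = 0.744; -1.34, SE 0.515, adjusted p = 0.234 without naive replicate 2). Summed over the 3 genes, the levels were 92.9, 7.87 and 189 CPM in naive and 80.03 to 113 CPM in allograft libraries, where the log2 fold change was -0.08 (SE 0.755, adjusted p = 0.992; -0.63, adjusted p = 0.337 without naive replicate 2). Naive replicate 2 lay below every allograft in that sum and naive replicate 3 above, which held for Gbp8 and Gbp9 alone too.

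Irgm1 had a negative log2 fold change, unlike Gbp2 and Gbp3, but it did not pass the test. Its product belongs to the regulatory immunity-related GTPases, which hold the effector members inactive on host membranes. Irgm1 stood at 44.0, 57.2 and 18.7 CPM in the naive libraries, and at 15.9, 9.75, 26.2 and 12.2 CPM in the allografts. Allograft replicate 3 lay above naive replicate 3, and the other allografts lay below every naive library. The log2 fold change was -1.63 (SE 0.598), with an unadjusted p of 0.0276 and an adjusted p of 0.372 in edgeR's test. Without naive replicate 2 it was -1.01 (SE 0.559, adjusted p = 0.346). The naive mean was 39.98 ± 19.6 CPM (SD, n = 3), against 16.0 ± 7.25 CPM (SD, n = 4) for the allografts. Igtp, also called Irgm3 and likewise a regulatory member, had 28.9, 18.8 and 39.6 CPM in naive and 40.7, 15.4, 26.0 and 16.5 CPM in allograft libraries. The groups overlapped over most of their range (log2 fold change -0.40, SE 0.476, adjusted p = 0.866; -0.52, adjusted p = 0.635 without naive replicate 2). Allograft replicates 1 and 3 were the higher allografts for both Irgm1 and Igtp. Summed with Irgm2, the levels of Igtp differed by -0.57 on the log2 scale (SE 0.447, adjusted p = 0.764; -0.49, adjusted p = 0.644 without naive replicate 2).

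**Figure D3:**
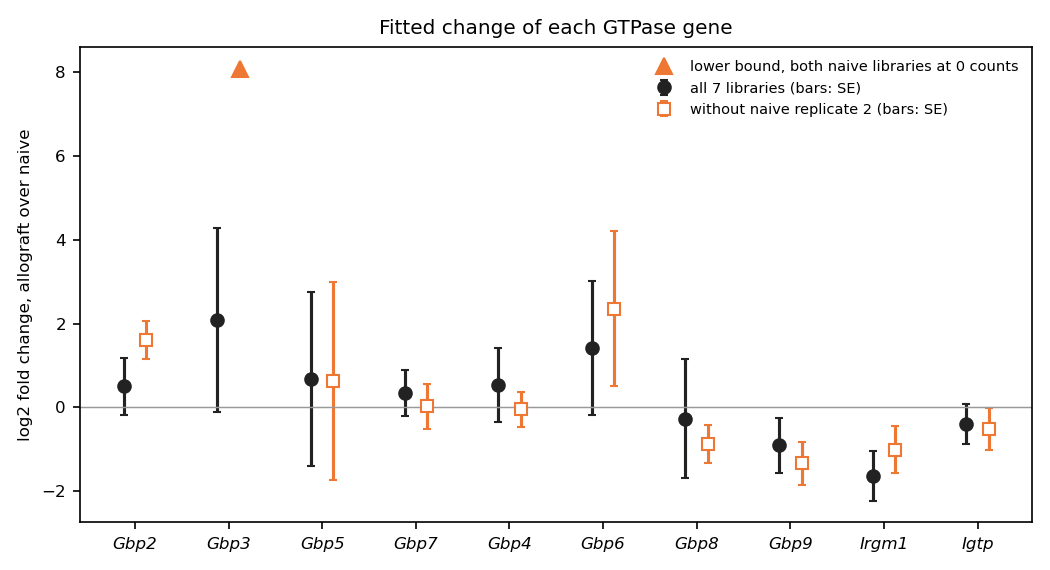
Log2 fold change of each GTPase gene, allograft over naive, from edgeR with its standard error, over all 7 libraries (filled) and without naive replicate 2 (open). The triangle is the lower bound of 8.08 for Gbp3, whose 2 remaining naive libraries held no count. It comes from a limit of 3 counts, which covers counting error only. Gbp2, Gbp3, Gbp5 and Gbp6 are above 0 and Gbp8, Gbp9, Irgm1 and Igtp below 0 in both, while Gbp4 changes side.

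Over all 7 libraries none of the 10 genes passed an adjusted p of 0.05, where 0.0353% of all genes tested did. DESeq2 also called 0 of the 10, with 5.18% of its 24028 genes called. At an unadjusted p under 0.05 in edgeR, 0 were higher and 1, Irgm1, was lower, where 6.41% and 3.86% of all genes were. The groups did not overlap for 2 of the 10, Gbp3 and Gbp6, both higher (12.5% of all genes tested were higher in this way), and for 0 lower (2.15%). With CPM also scaled by TMM, these shares of all genes were 10.5% and 3.19%. Without naive replicate 2, 1 of 10 passed, Gbp3 (3.1% of all genes), and 3 did not overlap, Gbp2, Gbp3 and Gbp6, all higher (21.0% of all genes, and 7.15% lower). At an unadjusted p under 0.05, Gbp2 and Gbp3 were then higher (15.6% of all genes) and Gbp9 lower (4.67%). Of the 10 log2 fold changes 6 were above 0 (49.4% of all genes), with a median of 0.42 against -0.01 for all genes tested. Leaving out naive replicate 2 gave 5 above 0 (58.7% of all genes) and a median of -0.01, against 0.23 for all 18037 genes tested. The counts are small, and the direction of the median did not hold without that library.

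The ligand gene of the pathway was higher in the graft libraries, whereas Irf1 and Socs1 had lower mean levels there. Ifng, which encodes interferon gamma, stood at 0, 1.85 and 0 CPM in the naive libraries, and at 21.2, 23.5, 14.4 and 17.9 CPM in the allografts. All 4 allografts were above all 3 naive libraries (log2 fold change 4.39, SE 2.18, adjusted p = 0.579). When naive replicate 2 was left out, Ifng rose (adjusted p = 0.0234 in edgeR), with 0 counts in both remaining naive libraries. Its allograft mean was 307 times their mean limit of 3 counts per library. As for Gbp3, that limit covers counting error only, and Ifng could only come out higher. Markers of natural killer cells and ILC1s, which make interferon gamma, summed to 174, 17.9 and 88.6 CPM over 7 genes in naive and 234 to 332 CPM in allograft libraries. Of these 7 markers, 5, 3 and 4 were at 0 in naive replicates 1 to 3 and at most 1 in an allograft. The 9 T cell markers summed to 115, 17.0 and 238 CPM in naive and 276 to 338 CPM in allograft libraries, with 3 or 4 at 0 in each naive library and 0 to 4 in an allograft. The part of such cells in the levels of Ifng and of the GTPases was not tested.

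The receptor and kinase genes did not separate the groups over all 7 libraries, and naive replicate 2 was lowest for each of them. Ifngr1 had 223, 17.9 and 222 CPM in naive and 112 to 181 CPM in allograft libraries (log2 fold change -0.04, adjusted p = 0.996). Ifngr2 had 54.9, 13.7 and 40.7 CPM in naive and 34.7 to 54.2 CPM in allograft libraries (log2 fold change 0.26, adjusted p = 0.914). For Jak1 the log2 fold change was 0.46 (adjusted p = 0.862), and that of Jak2 was 0.61 (adjusted p = 0.869). With naive replicate 2 left out, Ifngr1 was lower in every allograft than in both naive libraries (log2 fold change -0.56, SE 0.255, adjusted p = 0.273). The values of Ifngr2, Jak1 and Jak2 were then -0.07, -0.01 and 0.07 (adjusted p = 0.940, 0.992 and 0.943).

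Irf1, which is needed for full induction of the guanylate binding proteins, had 150, 42.0 and 142 CPM in naive and 58.1, 48.1, 46.6 and 30.99 CPM in allograft libraries. Naive replicate 2 lay within the allografts, and the other naive libraries were above all of them. The log2 fold change was -1.38 (SE 0.402, adjusted p = 0.277), and without naive replicate 2 Irf1 fell by 1.71 (adjusted p = 0.0437). Socs1, the feedback inhibitor of the kinases, had 81.4, 9.47 and 302 CPM in naive and 40.7 to 53.6 CPM in allograft libraries (log2 fold change -1.57, adjusted p = 0.619; -2.12, adjusted p = 0.0753 without naive replicate 2). Irf8, a myeloid and lymphoid factor of the same family, had the lowest p of this list. Its levels were 10.6, 15.8 and 25.5 CPM in naive and 72.2 to 93.3 CPM in allograft libraries (log2 fold change 2.06, SE 0.408, adjusted p = 0.145; 2.17, adjusted p = 0.0571 without naive replicate 2).

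**Figure D4:**
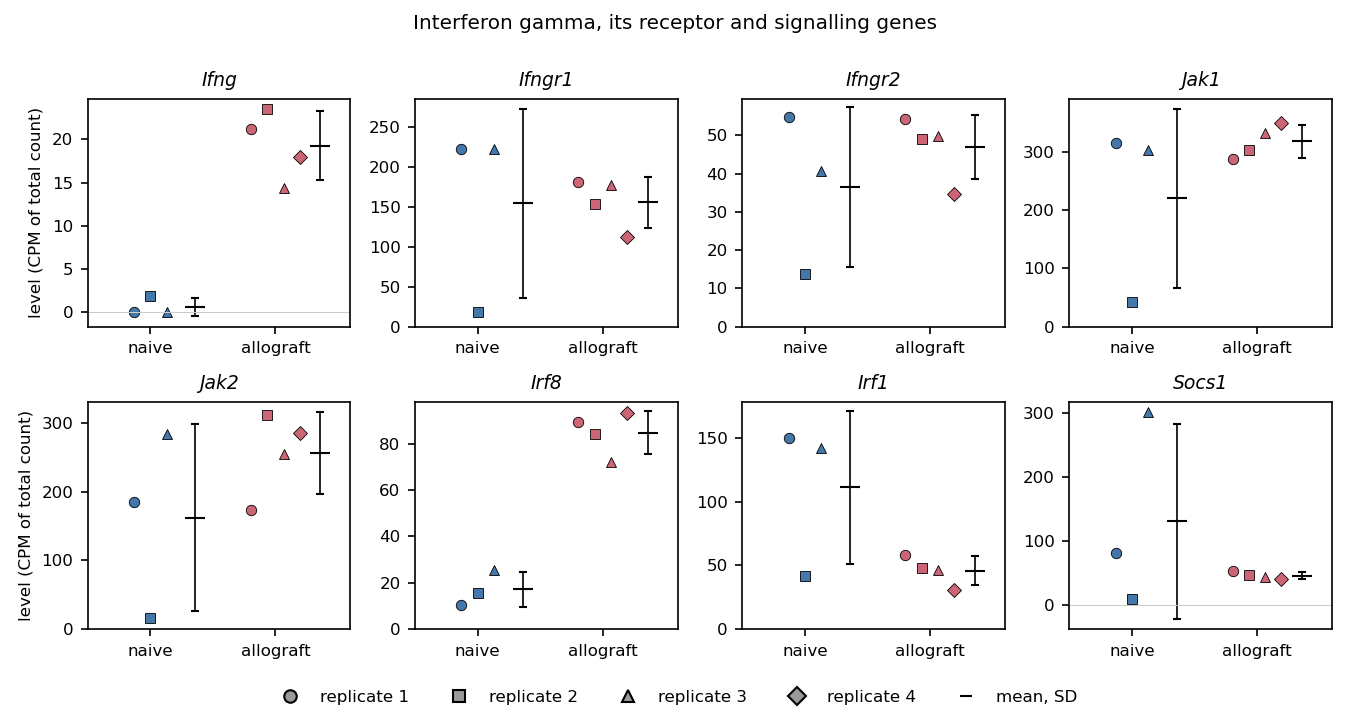
Level (CPM, linear axes starting at or below 0) of interferon gamma, its receptor chains, the kinases, Irf8, Irf1 and Socs1, drawn as in the plot of the GTPase genes. Ifng and Irf8 lie higher in every allograft library than in every naive library. Irf1 lies lower in the allografts than in naive replicates 1 and 3, while naive replicate 2 lies among the allografts.

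All 14 interferon gamma signalling genes were tested and 0 passed over all 7 libraries. Without overlap 4 were higher (12.5% of all genes), including Ifng, Irf8 and Irf9, and 1, Socs3, was lower (2.15%). With naive replicate 2 left out, 2 of the 14 passed (3.1% of all genes). Ifng was higher (3.0% of all genes) and Irf1 lower (0.0998%). Then 4 were higher without overlap (21.0%) and 5 lower (7.15%), namely Ifngr1, Irf1, Ptpn2, Socs1 and Socs3. Irf9, Socs3 and Ptpn2 were named after their values were seen. Of 16 other interferon-inducible GTPase genes 11 were tested over all 7 libraries and 0 passed. By log2 fold change 4 were higher (49.4% of all genes) and 7 lower, with a median of -0.69 (-0.01 for all genes tested). Leaving out naive replicate 2 gave 7 of 12 higher, near the 58.7% of all genes. The median was then 1.04, against 0.23 for all genes tested. Several of the 7, among them Gbp10 and Mx1, had no count in naive replicates 1 and 3. Over all 7 libraries the lowest p values were those of Gbp10 and Tgtp1. Gbp10, the neighbour of Gbp6, had no count in a naive library and 1.25, 0.833, 1.42 and 0 CPM in the allografts. The allograft mean was 13.7 times the mean limit of 3 counts per naive library, with an adjusted p of 0.341 in edgeR. That limit covers counting error only. Allograft replicate 4 also held 0 counts of Gbp10, where the other allografts held 27 to 58. Tgtp1, an effector immunity-related GTPase, had 78.0, 42.0 and 23.5 CPM in naive and 34.4, 14.9, 16.9 and 19.2 CPM in allograft libraries (log2 fold change -1.36, SE 0.516, adjusted p = 0.397; -1.27, adjusted p = 0.269 without naive replicate 2). Tgtp2, its near-identical neighbour and named after its values were seen, had a log2 fold change of -1.19 (adjusted p = 0.409; -1.22, adjusted p = 0.248 without naive replicate 2), and reads of the 2 may have been split. The very large GTPase gene Gvin1, with the highest mean level of these, had a log2 fold change of -0.26 (adjusted p = 0.957; -0.77, adjusted p = 0.330 without naive replicate 2). When naive replicate 2 was left out, 1 of 12 tested passed (3.1% of all genes). This was the antiviral Mx1, which rose (adjusted p = 0.0466 in edgeR). Mx1 had 0, 0.616 and 0 CPM in naive and 1.35 to 3.93 CPM in allograft libraries. Over all 7 libraries its log2 fold change was 2.92 (SE 2.08, adjusted p = 0.741). Its allograft mean was 36.8 times the mean limit of naive replicates 1 and 3. Without a count in these it could only come out higher.

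Of 16 other interferon gamma targets 13 were tested and 0 passed, with a median log2 fold change of 0.05 (-0.05 without naive replicate 2). Tap2, a peptide transporter subunit, had the lowest p (log2 fold change 1.23, SE 0.462, adjusted p = 0.389; 0.91, adjusted p = 0.278 without naive replicate 2), followed by its partner Tap1 (0.69, adjusted p = 0.784; 0.24, adjusted p = 0.788 without naive replicate 2). The class I light chain B2m, the most abundant of them, stood at 8998, 871 and 5088 CPM in naive and 4441 to 6552 CPM in allograft libraries (log2 fold change 0.05, adjusted p = 0.995; -0.44, adjusted p = 0.427 without naive replicate 2). All 14 type I interferon stimulated genes were tested and 0 passed (median 0.34, and 0.80 without naive replicate 2). Their lowest p was that of Ifit3, at 10.7, 102 and 0 CPM in naive and 0.783 to 2.20 CPM in allograft libraries (log2 fold change -5.10, adjusted p = 0.422; -1.77, adjusted p = 0.656 without naive replicate 2, its highest library). The next was Bst2, the antiviral tether tetherin, at 63.4, 24.8 and 43.5 CPM in naive and 65.2 to 92.5 CPM in allograft libraries (log2 fold change 0.64, adjusted p = 0.584; 0.46, adjusted p = 0.418 without naive replicate 2). Without naive replicate 2, 8 of these 14 were higher without overlap, where 21.0% of all genes were, 0 were lower, and 0 passed. Of the other interferon gamma targets, 14 were tested without that library and 0 passed. Among them 1, Wars, was higher without overlap and 3 were lower, where 7.15% of all genes were lower. The 3 were Nlrc5, Psmb9 and Serpina3g, named like Wars after their values were seen.

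The 17 genes of autophagy and inflammasome partners, through which these GTPases are known to work, were all tested, and 0 passed, with 3 higher (12.5% of all genes) and 0 lower (2.15%) without overlap. Nlrp3, the inflammasome sensor acted on by GBP5, had no count in a naive library and 1.79, 2.25, 3.67 and 2.16 CPM in the allografts. Its mean was 38.7 times the mean limit of 3 counts per naive library, with an adjusted p of 0.145 in edgeR. It was the 1 of 17 that passed without naive replicate 2 (adjusted p = 0.0437), where 3.1% of all genes did. With no naive count it could only come out higher, and naive replicates 1 and 3 had the fewest genes detected. Markers of macrophages and dendritic cells, which express Nlrp3, summed to 15.2, 249 and 474 CPM over 10 genes in naive and 197 to 281 CPM in allograft libraries. Of these, 9, 4 and 8 were at 0 in naive replicates 1 to 3 and 1 to 3 in an allograft. The 6 neutrophil markers summed to 0, 12.7 and 5.16 CPM in naive and 75.1 to 124 CPM in allograft libraries. Their part was not tested. Gabarapl1, a ubiquitin-like autophagy protein, had 0.547, 283 and 49.3 CPM in naive and 4.23 to 25.4 CPM in allograft libraries (log2 fold change -3.06, adjusted p = 0.584; -0.47, adjusted p = 0.905 without naive replicate 2, its highest library). The autophagy receptor gene Sqstm1, which had the highest mean of this list over all 7 libraries, had a log2 fold change of 0.48 (adjusted p = 0.749; 0.59, adjusted p = 0.325 without naive replicate 2).

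Across the 7 libraries the GTPase genes followed several patterns. Of their 45 pairs, 19 had a positive Pearson's r of log2 CPM. The pairs shared libraries, depth and the single outlying naive library, so that these values are a description. The highest r were those of Gbp4 with Gbp8 (0.957) and of Gbp2 with Gbp3 (0.936), neighbours on chromosome 3. Gbp4 and Gbp8 were both lowest in naive replicate 2, and they share 61 exonic bases, only 0.814% of Gbp4 and 1.77% of Gbp8. The lowest was that of Gbp6 with Gbp9 (-0.934). Among 8778 other genes with a mean of at least 10 CPM, those most like the mean profile of the 10 GTPases were Mrpl57 (r = 0.989), Rbm48 (0.979), Pigl (0.976), Fam221b (0.975) and Grap (0.970), over 7 libraries. Grap, an adaptor of lymphocyte signalling, had 50.9, 16.9 and 23.3 CPM in naive and 197 to 279.9 CPM in allograft libraries.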

How the data were processed

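RNA of sorted ILC2s was measured in 7 libraries, 3 naive and 4 allograft, grouped by sample title. The authors deposited counts per gene and FPKM for the same genes. The submitters' processing notes name STAR 2.5.3a, StringTie 1.3.1c, FastQC 0.11.5, DESeq2 1.16.1 and build mm10, without saying which tool made which table. Per the labels' protocols, full-length cDNA was amplified. The deposited counts were whole, but FPKM showed that low ones were estimates rounded up: 294 counts of 1 corresponded to a median of 0.378, and the single Gbp8 count of naive replicate 2 to 0.0615. No molecular identifiers were used, so limits of 3 counts cover counting error only. A limit of 3 counts was 0.0566 to 0.103 CPM.

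The test was edgeR 4.0.16 (R 4.3.3), a quasi-likelihood fit with TMM scaling, filterByExpr and Benjamini-Hochberg adjustment at 0.05 over all 17015 genes tested. Fold changes are log2, allograft over naive. It was also run on simulated data with 200 changed genes. How many of these it recovered is not reported here, and a gene that did not pass may still have changed. CPM was computed from the deposited total, with TMM-scaled CPM as an alternative for the summed level. Alternatives were DESeq2 1.42.0, its size factors in edgeR, upper quartile scaling, no filter, a mean of at least 50 counts, a robust fit, limma 3.58.1 on log2(FPKM + 1) and log2(FPKM + 0.1), a replicate block and leaving out each library. Summing genes with shared exons, replicates 1 to 3 without the block and the summed level without naive replicate 2 were added after the data were seen. The 10 genes and all lists were chosen with earlier results of these data known. Every member was named; from other lists, genes past the threshold or otherwise the 2 with the smallest p and the most abundant, a fixed set of pathway genes, 1 of which is not reported here, and the 5 genes most like the members. Promoter windows are from RefSeq, positions from GENCODE M21.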

Additional observations from a re-analysis of the deposited data

Results flagged for a closer look

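Among the 4 allograft libraries, 11 values (the 10 GTPase genes and their sum) were examined for a library with a wide gap to its nearest neighbour. Such a gap was found for 3 values, where 0.55 would be expected by chance if the 11 were independent. They come from the same 4 libraries and include the sum of the others, so no excess can be read from this. Gbp3 had 20.81 CPM in allograft replicate 1 against 15.53 to 15.80 CPM in the others. Gbp4 had 74.44 CPM in the same library against 33.97 to 40.12 CPM. Gbp5 had 0 CPM in allograft replicate 3 against 2.685 to 3.195 CPM.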

How the results depend on the processing

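The edgeR test called 6 of 17015 genes over all 7 libraries (1748 at an unadjusted p under 0.05) and 0 of the 10 GTPases. For all genes, DESeq2's Wald test called 1244, limma on log2(FPKM + 0.1) 201 and limma on log2(FPKM + 1) 76. Other scalings, filters and the robust fit called 4 to 6. Leaving out 1 library gave 0 to 560 calls: 560 without naive replicate 2 (also with overlapping genes summed), 107 and 7 on leaving out naive replicates 1 and 3, and 0 on leaving out an allograft (848 to 1074 at an unadjusted p under 0.05). The number of GTPases past the threshold ranged from 0 to 1. The 1 was Gbp3 without naive replicate 2, also with overlapping genes summed. No GTPase was lower without overlap over all libraries, and 1, Irgm1, was without naive replicate 3 or allograft replicate 3 (range 0 to 1). DESeq2 called 1 other GTPase, 3 signalling genes and 1 partner gene, and limma called 1 signalling gene with either pseudocount. Leaving out 1 library gave 0 to 1 call of other GTPases, 0 to 2 of signalling genes and 0 to 1 of partners, the highest without naive replicate 2.

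The sign of the log2 fold change held in all 17 alternatives for Gbp2, Gbp3, Gbp5, Gbp6, Gbp7, Irgm1 and Igtp. It came nearest 0 without naive replicate 3 for Gbp2 (0.18, SE 0.62), Gbp3 (1.53, SE 1.89), Gbp5 (0.10, SE 1.84) and Igtp (-0.18, SE 0.487). For Gbp7 it fell to 0.003 (SE 0.535) without naive replicate 1. Each of these was smaller in size than its SE, so that for these genes a held sign is no firm direction. Gbp4 ranged from -0.046 (without naive replicate 2) to 1.08 (without naive replicate 3) on leaving out 1 library, Gbp8 from -0.87 to 1.00 and Gbp9 from -1.34 to 0.19, with the same libraries at the ends. Gbp8 was also above 0 with limma, at 1.64 (pseudocount 0.1) and 0.62 (pseudocount 1), and at 0.67 with the replicate block. The cause was not tested. Same-numbered libraries deviated from their group means with r of 0.0169, -0.0196 and 0.036, and the other pairs with r of -0.087 to 0.076. With so few libraries and an outlying naive replicate 2, this check cannot tell whether the numbers pair the samples. The replicate block on replicates 1 to 3 called 0 genes, as did these 6 libraries without it. Levels of a few counts, such as Gbp8 in naive replicate 2, limit what can be compared.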
